A study of Rattus norvegicus with 24 samples.

Results

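The transcriptional response to glutamate was measured in rat cortical cell cultures that carried the solvent control DMSO and none of the 3 coded agents of the series. The comparison set the 3 libraries titled DMSO_glutamate against the 3 titled DMSO, which are 6 of the 24 libraries of the series. The members were picked by these titles, with earlier results of these data known. The DMSO_glutamate cultures were given medium with 250 μM glutamate after 8 days in culture, and the DMSO cultures fresh growth medium at the same point. All 6 carried DMSO by their titles, and wells were imaged for 4 h after the exchange. The labels give no DMSO dose, no time of RNA collection and no age or sex of the animals, and no label says whether replicates came from separate cultures. The p-values below therefore weigh differences against the scatter of these libraries only, and part of that scatter may be technical. The other 18 libraries, which carried IS141, AH609 or AH236 in the same pair of media, entered the shared fit and 2 comparisons below.

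Glutamate is the main excitatory transmitter of the cortex. It opens NMDA and AMPA receptors on neurons, and the calcium that enters through NMDA receptors activates kinases, phosphatases and proteases and reaches the nucleus as a signal to transcription. Short activity of these receptors switches on immediate early genes, while lasting exposure injures neurons, a process known as excitotoxicity. Glia in the same cultures take glutamate up. None of these genes could be singled out here, because the files used pair no gene ID with a name, and the cell type label could for the same reason not be checked against marker genes. The genes are therefore described by how far, in which direction and in which libraries they moved.

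The 3 glutamate libraries held 29643812, 28708191 and 34997849 counts and the 3 medium libraries 26999018, 26008125 and 30001744. At least 1 count was seen for 20427, 19969 and 20544 genes in the glutamate libraries and for 19741, 19789 and 19857 in the medium libraries. The 10 genes with the most counts took 11.1% to 11.3% of a glutamate library and 8.96% to 9.42% of a medium library, so counts were more concentrated under glutamate. The library titled DMSO without a number, called DMSO replicate 1 below, stood apart from the other medium libraries. Between it and replicates 2 and 3, 1035 and 1061 genes lay at least 2-fold apart, against 342 genes between replicates 2 and 3 and 282 to 408 between any pair of the glutamate libraries. The main counts are given with and without it, a split set with earlier results of these data known.

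In the shared fit of all 24 libraries, more than 1 in 2 of the genes tested were called, in nearly equal numbers each way. Of 15908 genes, 9407 (59.1%) were called, 4548 (28.6%) with higher and 4859 (30.5%) with lower counts under glutamate, at an adjusted p under 0.05 by edgeR's quasi-likelihood test with Benjamini-Hochberg adjustment, the threshold behind every call here. With the 6 DMSO libraries fitted alone, 7469 genes were called, which is fewer than 1 in 2. Most of the 9407 genes moved little, as 1268 genes (7.97%) rose at least 2-fold and 771 (4.85%) fell at least 2-fold. Large changes were mostly rises. A change of 4-fold or more was seen in 407 rises and 51 falls, of 8-fold or more in 158 and 5, and of 16-fold or more in 69 and 0. Without DMSO replicate 1 these numbers were 572 and 43, 259 and 2, and 129 and 0. The few falls of 8-fold or more also numbered 8 without DMSO_glutamate replicate 3. RNA came from whole cultures, in which fewer cells of a type and less RNA per cell cannot be told apart. Fold changes are relative to the scaling of the libraries by TMM, a trimmed mean of log ratios. When library totals alone were used, the median over all genes shifted to a log2 fold change of -0.20, against -0.01 with TMM, and 2882 genes were higher and 6948 lower.

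The libraries separated nearly as often as the test called. In CPM, the counts of a gene scaled to a common library size with the TMM factors, the 3 glutamate libraries lay above all 3 medium libraries for 4455 genes (28% of those tested) and below all 3 for 4702 (29.6%). Of the rises of at least 2-fold, 1230 of 1268 showed no overlap between the groups, and of the falls of at least 2-fold 734 of 771. Of the 158 rises of at least 8-fold, 157 showed no overlap. Among genes called at any fold, 4109 of 4548 rises and 4362 of 4859 falls showed none. Against medium replicates 2 and 3 alone, 5484 of the 15908 genes lay above and 5736 below. Leaving out any library can only keep or raise such counts, so the larger numbers follow in part from the smaller group. In the fit without DMSO replicate 1, 1414 of 1426 rises and 729 of 736 falls of at least 2-fold showed no overlap. Calls and fold changes came from the same libraries as the overlap. The lack of overlap among called genes therefore follows in part from their choice and is no separate evidence.

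For the 6501 genes that were not called, the interval of the change shows how much could have been missed. The 95% interval of the fold change lay within 1.25-fold either way for 2381 of them, within 1.5-fold for 3683 and within 2-fold for 4943. A change of over 2-fold is therefore within the interval for the other uncalled genes. Without DMSO replicate 1, 6306 genes were not called, and the interval lay within these bounds for 2327, 3497 and 4603 of them.

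The direction of the changes differed with the number of reads a gene collected. CPM is not per gene length, so it orders genes by reads rather than by transcripts. Among the 2597 genes with a mean under 0 log2 CPM over the 24 libraries, 17.6% were higher and 12.2% lower. Falls outnumbered rises in the middle of the range, with 24% higher and 41.4% lower among 3361 genes from 2 to 4 log2 CPM. Rises outnumbered falls among the 3163 genes at 6 log2 CPM and over, with 43.7% higher and 25.3% lower. These genes with many reads mostly moved by little, and 153 of them rose and 18 fell at least 2-fold. Those called had a median absolute log2 fold change of 0.33, while scaling by library totals moved the median over all genes from -0.01 to -0.20. The shares by range were counted with TMM only, so the balance of rises and falls in a range depends on that scaling. The median standard error of the log2 fold change was 0.41 in the lowest range and 0.06 in the highest, so precision grew with the number of reads.

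**Figure D1:**
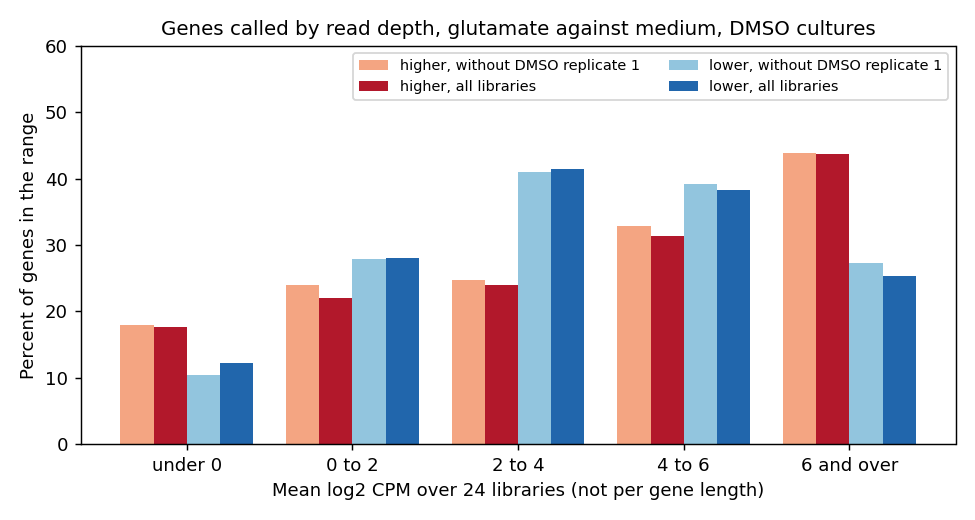
Percent of genes called higher (red) or lower (blue) in glutamate than in medium in DMSO cultures, by mean log2 CPM over the 24 libraries; pale bars leave out DMSO replicate 1. With TMM scaling, falls are the larger share from 2 to 4 log2 CPM (41.4% against 24% rises) and rises the larger share at 6 and over (43.7% against 25.3% falls).

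Rises were also more concentrated in few genes than falls. The summed gain over all genes whose mean CPM was higher in glutamate was 186055 CPM, and the 10 genes with the largest gain held 17.8% of it and the top 100 held 39.2%. The summed loss over the other genes was 60923 CPM, and the 10 and 100 genes with the largest loss held 4.02% and 17.6% of it. Without DMSO replicate 1 the top 10 genes held 18.5% of the gain and 5.23% of the loss. Both sums are on the TMM scale, on which CPM need not add up to the same total in every library, so gain and loss need not balance.

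Many of the largest rises started from very few reads. Of the 158 genes that rose at least 8-fold, 99 averaged under 1 CPM in medium, and of the 1268 that rose at least 2-fold, 545 did. Without DMSO replicate 1 the numbers were 170 of 259 and 642 of 1426. Of the 771 genes that fell at least 2-fold, 302 averaged under 1 CPM in glutamate. The same shares were not taken over all genes tested. On another measure, 2597 of the 15908 genes averaged under 0 log2 CPM over the 24 libraries. A gene with few reads in medium can pass the filter on low counts through glutamate libraries alone, and the reverse for falls. These counts therefore follow in part from the filter. No count in any medium library and at least 10 in each glutamate library was found for 2 genes, and the reverse for 0 genes. With DMSO replicate 1 left aside, the first of these numbers was 13. Fitted fold changes of genes with so few reads depend on the small count added by the fit and are approximate.

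**Figure D2:**
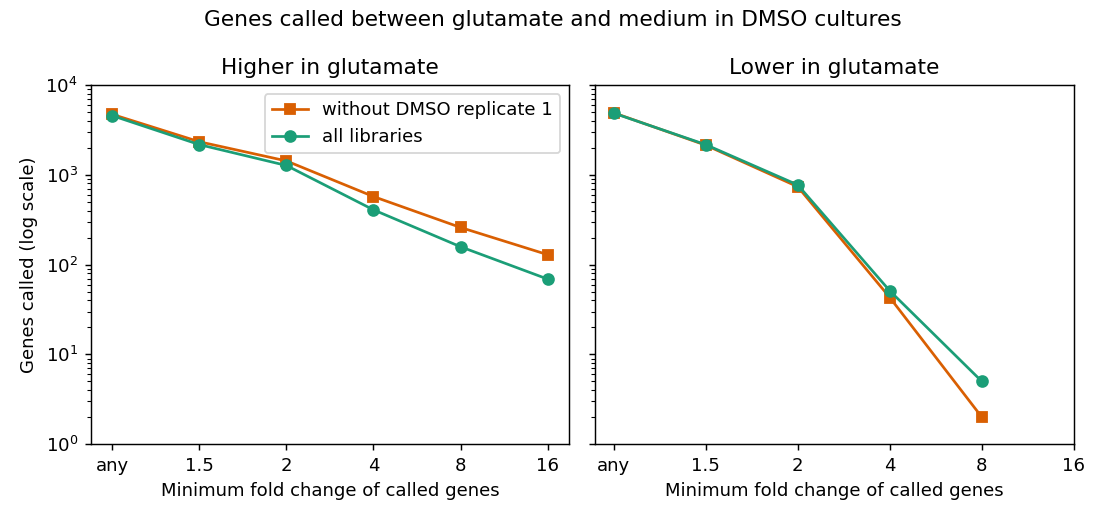
Number of genes called (log scale) with at least the fold change on the x axis, higher (left) and lower (right) in glutamate than in medium, in fits of all libraries (circles) and without DMSO replicate 1 (squares); a count of 0 is not drawn. The curves for falls nearly coincide up to 4-fold, while rises of at least 8-fold number 259 without DMSO replicate 1 and 158 with it.

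Large changes are shown by 2 rises and 2 falls. They were the largest among called genes that averaged 1 log2 CPM or more across the 6 DMSO libraries and showed no overlap between the groups. Without these limits, called genes rose by up to 9.27 and fell by up to 3.94 on the log2 scale. ENSRNOG00000046667 had 673, 803 and 700.1 CPM in the glutamate libraries, against 10.7, 1.82 and 1.69 CPM in medium replicates 1, 2 and 3. The groups lay far apart, but replicate 1 was several times above the other medium libraries. Its log2 fold change was 7.26 ± 0.43 (SE; edgeR adjusted p = 1.87e-10), and without DMSO replicate 1 it was 8.69 ± 0.21 (SE; adjusted p = 4.82e-16). In the cultures of the 3 agents the gene ran from 778 to 919 CPM in 9 glutamate libraries and from 1.63 to 12.2 CPM in 9 medium libraries. Levels near the 10.7 CPM of DMSO replicate 1 were found in medium with IS141, at 8.27, 9.48 and 12.2 CPM, while AH609 libraries in medium had 3.53 to 5.42 CPM and AH236 libraries 1.63 to 2.82 CPM.

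ENSRNOG00000020009 had 1158, 1362 and 1221 CPM in the glutamate libraries, against 11.1, 7.40 and 6.57 CPM in medium. Replicate 1 was again the highest medium library, by a smaller margin. The log2 fold change was 7.22 ± 0.22 (SE; adjusted p = 8.99e-15) in the edgeR fit of all libraries and 7.48 ± 0.23 (SE; adjusted p = 3.4e-14) without that library. In the agents' cultures it ran from 1445 to 1716 CPM in glutamate, above all 3 DMSO glutamate libraries, and in medium from 31.1 to 43.1 CPM with IS141, up to 19.7 CPM with AH609 and from 10.1 to 11.6 CPM with AH236.

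ENSRNOG00000033026 had 1.18, 1.12 and 1.30 CPM in glutamate, against 11.2, 11.7 and 8.44 CPM in medium, and replicate 1 lay between the other medium libraries. The gene fell by 3.10 ± 0.15 on the log2 scale (SE; edgeR adjusted p = 4.03e-15), and without replicate 1 its log2 fold change was -3.04 ± 0.16 (SE; adjusted p = 1.78e-16). ENSRNOG00000007332 had 1.21, 1.42 and 1.13 CPM in glutamate, against 9.01, 7.40 and 5.59 CPM in medium, with replicate 1 the highest. It fell by 2.55 ± 0.17 (SE; edgeR adjusted p = 2.13e-12), and without replicate 1 its log2 fold change was -2.37 ± 0.17 (SE; adjusted p = 1.59e-13). These falls rest on 30 to 44 counts per glutamate library for ENSRNOG00000033026 and on 35 to 38 counts for ENSRNOG00000007332.

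**Figure D3:**
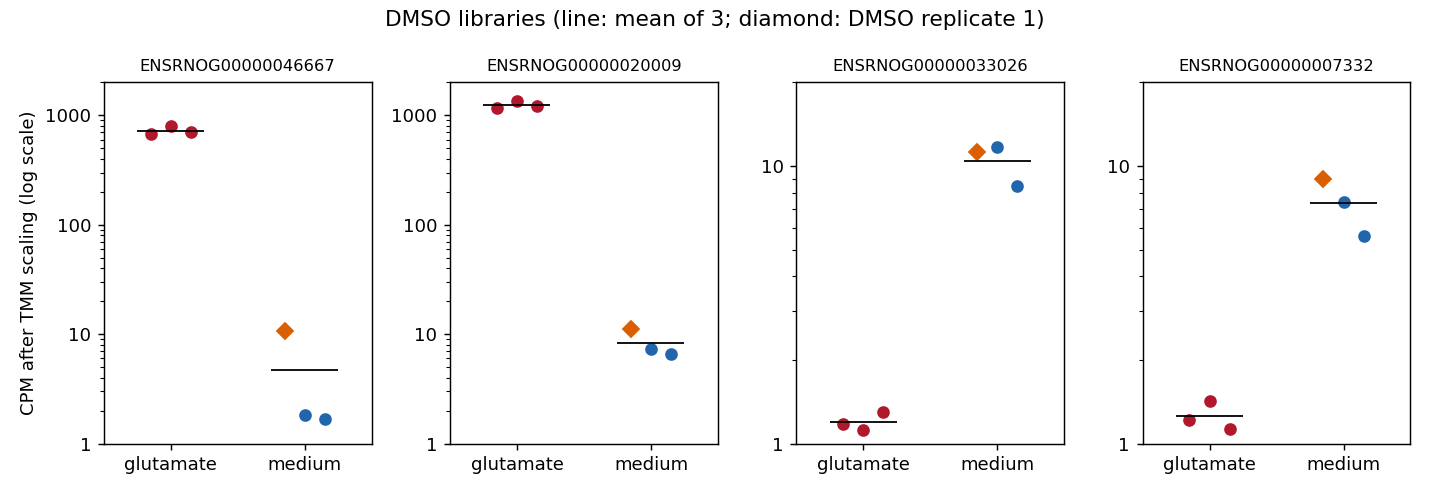
CPM after TMM scaling (log scale) in each DMSO library of the 2 largest rises and the 2 largest falls among called genes that averaged 1 log2 CPM or more and had no overlap between the groups, glutamate left of medium, with the mean of 3 as a line and DMSO replicate 1 as a diamond. The diamond lies well above the other medium libraries for ENSRNOG00000046667 (10.7 against 1.82 and 1.69 CPM).

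Leaving out DMSO replicate 1 changed the size of the large rises more than the list of genes called. Without it 9602 genes (60.4%) were called, 4703 (29.6%) higher and 4899 (30.8%) lower. Of the 9407 genes called with all libraries and the 9602 called without replicate 1, 8637 were called in both in the same direction, which is 4177 rises and 4460 falls, and 0 were called in opposite directions. Calls gained without it were 526 rises and 439 falls, and calls lost were 371 rises and 399 falls. The genes that entered or left mostly moved little, and the median log2 fold change of the gained rises was 0.42 without replicate 1 and that of the lost rises 0.28 with it.

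Rises of at least 2-fold numbered 1426 (8.96%) without DMSO replicate 1, of which 1181 were also among the 1268 found with it. Of the 245 found only without it, 130 had been called higher at a smaller fold and 115 had not been called. Falls of at least 2-fold numbered 736 (4.63%), of which 635 were among the 771. The log2 fold change of 219 genes was larger by 1 or more without replicate 1, by up to 6.90, and that of 0 genes was smaller by 1 or more. For 38 of the 219 the sign turned, and over all genes called in either fit the sign differed between the fits for 58. Of these 219 genes, 116 were called higher with all libraries and 185 without replicate 1. Rises of at least 8-fold numbered 259 without it, against 158. The common biological coefficient of variation of the fit was 5.84% without replicate 1 and 7.49% with all libraries.

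Genes that glutamate moved in the cultures of the agents were then followed in the DMSO cultures. They were chosen in a fit of the 18 agent libraries alone, as genes called with a 2-fold or larger change that had 1 sign under IS141, AH609 and AH236, so that no DMSO library had a part in the choice. All 1016 raised and all 534 lowered genes were among those tested in DMSO cultures. Of the raised genes 965 (95%) were higher in DMSO glutamate, against 28.6% of all genes tested, 0 were lower and 51 were not called. Their median log2 fold change was 1.71, with quartiles of 1.28 and 2.43, against a median of -0.01 over all genes. Of the lowered genes 515 (96.4%) were lower, against 30.5% of all genes tested, 0 were higher and 19 were not called, with a median of -1.23. Without DMSO replicate 1, 985 of the raised and 509 of the lowered genes were called in the same directions, and the medians were 1.98 and -1.22. These calls still take part of their spread from the agent libraries that chose the genes. With the 6 DMSO libraries fitted alone, 889 of the raised genes were higher and 498 of the lowered genes lower. In that fit 3596 of the 15908 genes were higher and 3873 lower.

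The raised genes took 5.65%, 5.81% and 5.68% of the counts of the DMSO glutamate libraries, against 2.18%, 1.58% and 1.60% in medium replicates 1, 2 and 3. All glutamate libraries lay above all medium libraries, and replicate 1 lay above the other medium libraries. The lowered genes took 0.429%, 0.383% and 0.393% in glutamate, against 1.07%, 1.06% and 1.05% in medium, with the 3 medium libraries close together. These shares are of library totals, so they follow that scaling and not TMM.

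DMSO replicate 1 thus differed from replicates 2 and 3 on the side of the raised genes and not of the lowered ones. The median log2 CPM of the 1016 raised genes was 3.33, 3.36 and 3.35 in DMSO glutamate, against 1.80, 0.92 and 0.94 in medium. The 9 agent libraries in glutamate lay between 3.36 and 3.55, and the 9 in medium between 0.90 and 1.54, so replicate 1 had the highest level of the medium libraries and remained below every glutamate library. For the 534 lowered genes the median was 1.71, 1.53 and 1.59 log2 CPM in DMSO glutamate, against 2.82, 2.76 and 2.81 in medium, where replicate 1 lay close to the others. The raised genes were chosen in the agents' cultures, so a higher level in the agents' glutamate libraries than in DMSO follows in part from the choice.

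**Figure D4:**
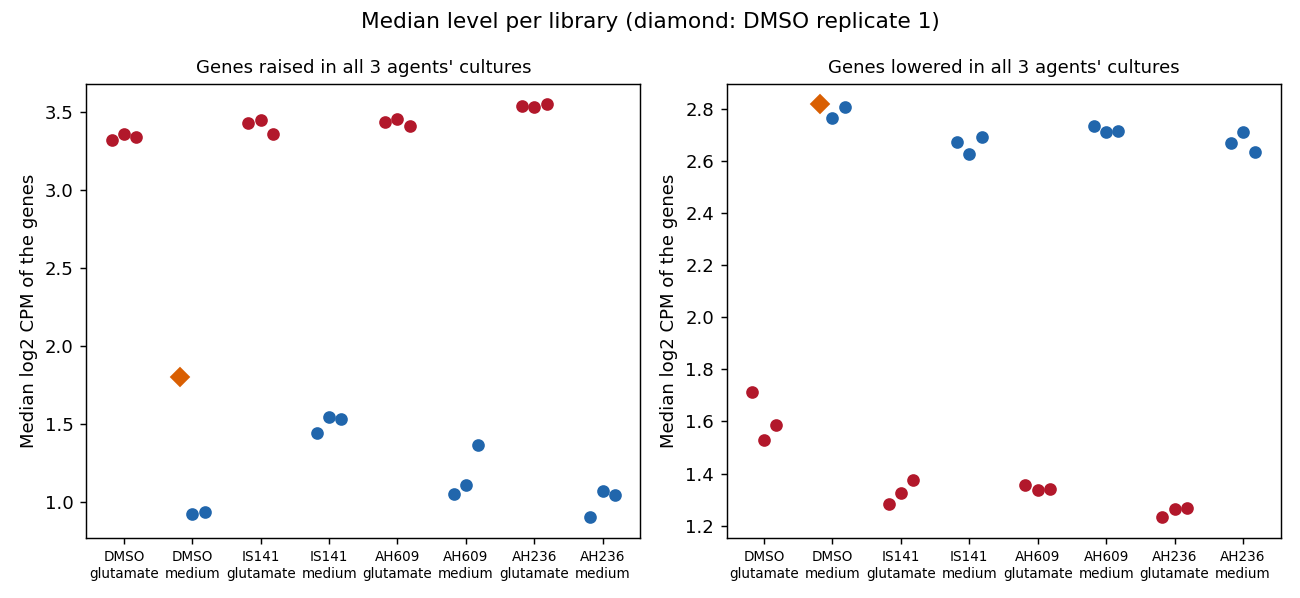
Median log2 CPM per library of the 1016 genes raised (left) and the 534 lowered (right) by glutamate in the cultures of all 3 agents, by treatment with glutamate libraries left of medium libraries; the diamond is DMSO replicate 1. For raised genes the diamond, at 1.80, lies above the other medium libraries and below all glutamate libraries, and for lowered genes, at 2.82, it lies with replicates 2 and 3.

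Gene by gene, replicate 1 was above both other medium libraries for 697 of the 1016 raised genes (68.6%) and below both for 171 (16.8%), against 41.4% above and 40.9% below over all genes. For the lowered genes the shares were 43.4% above and 37.5% below. The median per-gene difference of replicate 1 from the mean of replicates 2 and 3 was 0.38 on the log2 scale for raised genes, 0.03 for lowered genes and 0.00156 for all genes. These are values of 1 library beside 2 of the same group, so there is no test.

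At least 2-fold above both other medium libraries, replicate 1 had 521 genes, and at least 2-fold below both 161. The other 5 libraries, each set beside the remaining 2 of its group, had 25 to 59 such genes above and 46 to 91 below. Of the 521 genes, 229 (44%) were among the 1016 raised and 8 (1.54%) among the 534 lowered, against 6.39% and 3.36% of all genes tested. The mean effect of glutamate in the agents' cultures was upward for 405 of the 521 (77.7%) and downward for 105 (20.2%), against 49.5% each way of all genes tested, and 11 were not tested there. In 436 of the 521, replicate 1 was above all 11 other medium libraries, and in 206 it was above all 23 other libraries, the glutamate ones included. The 521 were chosen for a high level in replicate 1, so these 2 counts follow in part from the choice. The same counts were not taken over all genes or for another library. Of all 521 genes, 94 (18%) were called in the cultures of no agent, the 11 untested ones included, against 23.1% of all genes tested.

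The 161 genes that were low in replicate 1 showed no such lean, with an upward mean effect in the agents' cultures for 70 (43.5%) and a downward effect for 83 (51.6%), and 46% of them were called in the cultures of no agent. With a larger count of 5 added before the log, chosen after the data were seen, 84 genes were this low and 432 this high. The low group thus rests more on genes with few reads, and the 2 groups are not alike in this. Whether that bears on the lean was not tested. Across 15744 genes, whose values depend on one another, the difference of replicate 1 from replicates 2 and 3 correlated with the mean log2 fold change in the agents' cultures with a Pearson r of 0.291 and a Spearman rho of 0.128. The points share no library between the axes. What set replicate 1 apart was not tested, and the labels name no batch. Marker genes of other cell types could not be looked up.

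**Figure D5:**
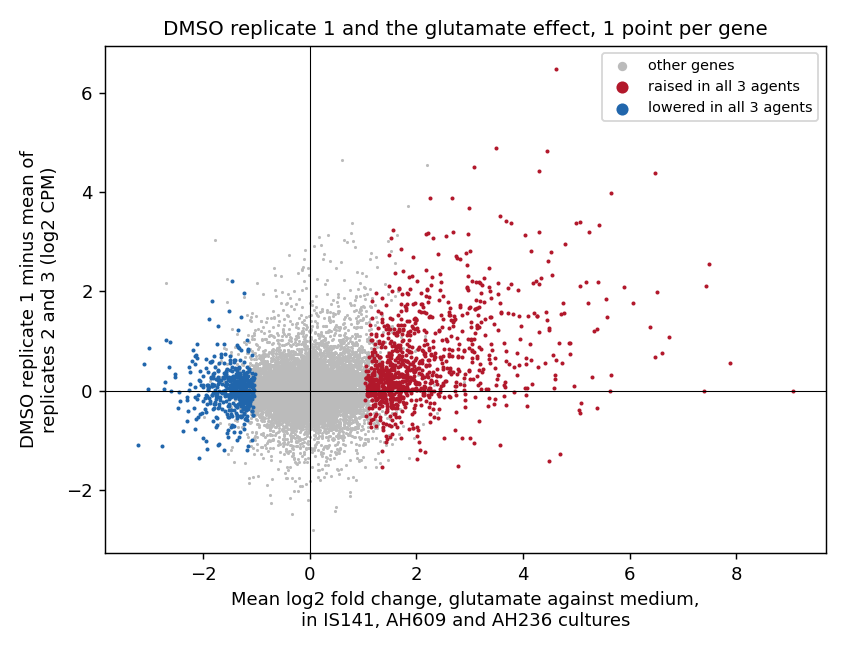
Difference of DMSO replicate 1 from the mean of replicates 2 and 3 in log2 CPM (y axis) against the mean log2 fold change of glutamate against medium in the cultures of the 3 agents (x axis), 1 point per gene, with raised genes in red and lowered genes in blue. The red points lean upward (median 0.38) and the blue points centre near 0 (median 0.03).

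Whether the glutamate effect in DMSO cultures differed from that with the agents was tested as an interaction, the DMSO effect minus the mean effect of the 3 agents, in the edgeR fit of all 24 libraries. It was called for 109 genes (0.685% of those tested), of which 65 (0.409%) had a higher and 44 (0.277%) a lower effect in DMSO. The 65 had a median log2 fold change of 0.34 in DMSO and -0.08 with the agents, and the 44 had medians of 0.15 and 0.68. Among the 65, 9 were raised and 7 lowered genes of the groups above, and among the 44, 14 were raised and 0 lowered. Of all genes tested, 6.39% were in the raised and 3.36% in the lowered group. Both groups were chosen by the agents' effect, which is 1 side of this difference, so membership is not independent of it.

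Without DMSO replicate 1 the interaction was called for 505 genes (3.17%), 344 (2.16%) with a higher and 161 (1.01%) with a lower effect in DMSO, and 102 of the 109 were among them with the same sign. The 344 had a median log2 fold change of 0.64 in DMSO and 0.19 with the agents. For 261 of the 344 the gap between DMSO and the agents was wider in medium than in glutamate, with medians of -0.39 in medium and 0.05 in glutamate. On the median, the higher effect in DMSO went with a lower level in medium in DMSO replicates 2 and 3 than in the agents' cultures. For the 344, the gap in medium was -0.51 to IS141, -0.40 to AH609 and -0.29 to AH236, with DMSO lower for 316, 327 and 296 genes. The effect by which the 344 were chosen includes this gap, so the lower level follows in part from the choice. The same gap was not taken over all genes. Among the 344, 81 were raised and 19 lowered genes of the groups above, against 6.39% and 3.36% of all genes tested. On the median, raised genes were higher in replicate 1 than in replicates 2 and 3, so leaving it out increases their effect in DMSO. The number of raised genes among the 344 therefore follows in part from leaving it out. The 161 had medians of -0.19 in DMSO and 0.16 with the agents, and the gap was wider in medium for 77 of them. None of the 4 named IDs was called with all libraries. Without replicate 1 the 2 rises were (adjusted p = 0.011 for ENSRNOG00000046667 and 0.0143 for ENSRNOG00000020009), though both had been chosen for a large rise in DMSO. For ENSRNOG00000046667 the direction turned with that library, at 1.20 on the log2 scale without it and -0.23 with it, and for ENSRNOG00000020009 the difference was 1.01 and 0.75. Without replicate 1 the 2 falls were not called (0.464 for ENSRNOG00000033026 and 0.589 for ENSRNOG00000007332).

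The count of interactions depended on single libraries. It was 222 without DMSO replicate 2, 66 without DMSO_glutamate replicate 1 and 51 without DMSO_glutamate replicate 2. Leaving out IS141_glutamate replicate 2 lowered the number of genes with a lower effect to 29.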

How the data were processed

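The authors deposited 1 table of unnormalized whole-number counts, with a column for each of the 24 libraries and a row for each rat Ensembl gene ID. STAR 2.7.8a, RSEM 1.3.3, cutadapt 2.3, FastQC 0.11.8 and bcl2fastq were named, with build Rnor_6.0, per the submitters' processing notes. What each tool did, the annotation and the strandedness of counting are not stated there. RSEM gives estimated counts, so values may have been rounded, and those of genes that share reads are uncertain. RNeasy kits served for extraction and a directional NEBNext kit for the libraries, per the labels' protocols. Libraries held 22509400 to 35496447 counts.

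Groups came from the sample titles, and the unnumbered title is replicate 1. Of 32754 rows, filterByExpr kept 15908. edgeR 4.0.16 (R 4.3.3) fitted 1 mean per group to all 24 libraries, with TMM factors and robust quasi-likelihood F tests, Benjamini-Hochberg adjusted over all genes tested. The SE is the log2 fold change over the root of F. Fits without a library kept the same genes. Log2 CPM used a prior count of 2. The agents' gene groups came from a fit of 15744 genes in 18 libraries.

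The members and lists were chosen with earlier results of these data known. The 38 gene lists (612 symbols) gave no result, because 0 IDs matched a name, so named IDs follow the rule without symbols, limited to 2 each way, and no sequence is printed. Alternatives were DESeq2 1.42.0, RLE factors, library totals, no filter, the DMSO libraries alone, a replicate block and each library left out. The fit was tested on simulated data.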

Additional observations from a re-analysis of the deposited data

Results flagged for a closer look

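The test of a difference between the glutamate effect in DMSO cultures and the mean effect with the 3 agents called 109 genes, 65 with a higher and 44 with a lower effect in DMSO, at an adjusted p under 0.05 by edgeR. It called 505 without DMSO replicate 1.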

How the results depend on the processing

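With any 1 of the 6 DMSO libraries left out, glutamate against medium called 8678 to 9602 genes, 4218 to 4703 higher and 4460 to 4899 lower. Changes of at least 2-fold ran from 1196 to 1426 rises and from 726 to 824 falls, and changes of at least 4-fold from 373 to 572 rises and from 43 to 74 falls. Rises of at least 8-fold ran from 144 to 259 and of at least 16-fold from 64 to 129, highest without DMSO replicate 1, and falls of at least 8-fold from 2 to 8. Without that library and with the DMSO libraries alone there were 260 and 129 such rises and 2 such falls. Library totals gave 2882 rises, 1312 falls of at least 2-fold and 78 of at least 4-fold, since the scaling moves all genes downward. With no filter on low counts 258 rises of at least 8-fold and 133 of at least 16-fold were called, with 89 falls of at least 4-fold and 32 of at least 8-fold, among more genes tested. The interaction ran from 51 to 505 genes over 24 libraries left out in turn, with 32 to 344 higher and 19 to 161 lower. DESeq2 called 221, 124 higher and 97 lower; the cause was not tested. It gave 20 of the 15908 genes no adjusted p for glutamate against medium. With a prior count of 5, chosen after the data were seen, replicate 1 was at least 2-fold below both others for 84 genes. The directions of the 4 named IDs and their calls held under every alternative run. Of the values recomputed, 275 kept to within 1.5 times or kept their call, and 29 moved by more than 1.5 times.

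Same-numbered libraries were not treated as pairs. Their deviations correlated with r = 0.131, 0.0396 and 0.169 for numbers 1, 2 and 3, and each library correlated best with its own number, a hint from the data and not the design. With the number as a replicate block the 6 DMSO libraries alone called 8107 genes, against 7469 without the block, and the interaction in all libraries called 100.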
